A study of Mus musculus with 50 samples.

Results

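The genes described here encode transcription factors of 4 families: T-box (Tbx1, Tbx2, Tbx3, Tbx4, Tbx5, Tbx6, Tbx15, Tbx18, Tbx20, Tbx21, Tbr1 and Eomes), Sox (Sox1, Sox2, Sox4 to Sox9, Sox11 to Sox14, Sox18 and Sox21), Gata (Gata2 to Gata6) and Fox (21 forkhead genes from Foxa1 to Foxq1). The rule named these genes and used no methylation value for them, although earlier results of these data were known when they were picked. It did not take the whole families, and 28 other family genes are described further on. Of the 52 genes, 51 had at least 1 measured CpG in the gene or its promoter, and Sox18 had none. The 51 genes held 1320 of the 205304 CpGs measured in all, which fell in 186 of 51038 clusters, a cluster being a run of CpGs at most 100 bp apart in the genome. T-box genes held 35 of these clusters, Sox genes 57, Gata genes 28 and Fox genes 66. A cluster of 8 CpGs between genes, with its midpoint 106718 bp upstream of Tbx3, was added. The reason was that it had been singled out earlier for its genotype difference in these same samples, and its values are given as a description.

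Reduced representation bisulfite sequencing measured DNA methylation in the soleus, a slow-twitch muscle of the calf, of C57BL/6 mice aged 12 weeks. Wild type (WT) mice carried 2 floxed copies of Dnmt3a and no Cre. Muscle-specific knockouts (mD3AKO) carried the same floxed alleles and a Cre transgene under the muscle creatine kinase promoter, which acts late in muscle differentiation and also in heart. Other cell types of the muscle are not the target of this Cre, and their Dnmt3a was not measured here. Muscles were taken at rest, after a sham run on a stationary treadmill, or 10, 30 or 60 min after 30 min of treadmill running. The WT groups held 5, 5, 5 and 6 mice at rest, 10, 30 and 60 min, and the mD3AKO groups 5, 5, 7 and 6, with both sexes in each group. Each sample was 1 soleus of 1 mouse and is named below by its number in the labels. The methylation counts cannot show the deletion itself, so the genotype labels were not checked.

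All T-box proteins bind DNA through the domain first described in Brachyury, and they pattern the heart, the limbs and the pharynx. Sox proteins bind the minor groove through an HMG box and bend DNA, Gata proteins read GATA with zinc fingers, and Fox proteins bind through a forkhead domain. In skeletal muscle, Sox6 represses slow-fibre genes, Tbx15 is expressed in glycolytic fibres, Tbx4 and Tbx5 belong to the hindlimb and forelimb programmes, and Sox8 and Foxk1 are known from satellite cells. The promoters of such developmental genes lie in CpG islands that are mostly free of methylation in adult tissue, while DNMT3A adds methyl groups to CpGs that carry none.

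The sequences below are those of the 4 member clusters that differed between genotypes and of the 2 Tbx3 clusters that the results return to. They are from the plus strand of GRCm38 (mm10), with the measured CpGs in capitals. The Sox8 window was kept to 30 bases because it lies in a 3′ UTR. The Foxp4 window holds the first 5 of the 9 measured CpGs. MspI cuts at CCGG, and each window held 1 or 2 such sites. The windows are chr17:25566076-25566105 (Sox8), chr7:115487926-115488034 (Sox6), chr17:47922532-47922643 (Foxp4), chr6:98994126-98994207 (Foxp1), chr5:119680853-119680947 (Tbx3 coding exon) and chr5:119563869-119564034 (upstream of Tbx3).
Sox8 3′ UTR: cccacctcggccccCGgaaggagataagct
Sox6 intron: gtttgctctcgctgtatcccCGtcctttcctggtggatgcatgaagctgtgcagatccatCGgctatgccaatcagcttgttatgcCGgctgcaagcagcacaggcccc
Foxp4 intron: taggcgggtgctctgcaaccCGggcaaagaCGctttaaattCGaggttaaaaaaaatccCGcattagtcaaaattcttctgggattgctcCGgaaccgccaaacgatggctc
Foxp1 intron: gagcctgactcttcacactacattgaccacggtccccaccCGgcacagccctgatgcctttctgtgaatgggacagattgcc
Tbx3 coding exon: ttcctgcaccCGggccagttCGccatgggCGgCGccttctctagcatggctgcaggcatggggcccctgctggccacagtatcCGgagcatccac
Upstream of Tbx3: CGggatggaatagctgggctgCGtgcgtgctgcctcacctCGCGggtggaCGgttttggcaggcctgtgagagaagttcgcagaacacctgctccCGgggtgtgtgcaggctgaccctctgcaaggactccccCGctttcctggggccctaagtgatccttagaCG

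Methylation was lower in mD3AKO than in WT at 4 of the 186 member clusters, in Sox8, Sox6, Foxp4 and Foxp1, and higher at none. All 4 clusters lay inside the genes and none touched a promoter. The test was edgeR's quasi-likelihood F test on methylated and unmethylated counts, with all 44 samples in 1 fit, and a cluster was called at a Benjamini-Hochberg adjusted p under 0.05 over all clusters. The called share of members, 2.15%, stood beside 1.09% of all clusters, of which 1.09% were lower and 0.00588% higher in mD3AKO. At an unadjusted p under 0.05, 15 of 186 members (8.06%) passed, beside 9.56% of all clusters. The likelihood ratio test and the quasi-binomial model, which called 2.77% and 2.54% of all clusters, called 6 member clusters each. Because whole muscle was sampled, a shift in the mix of nuclei and a change within myofibre nuclei cannot be told apart.

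Sox8, a group E Sox factor related to Sox9, had the lowest p of any member. Its CpG at chromosome 17, position 25566090, in the 3′ UTR 4596 bp from the 5′ end of the gene, was read 84 to 758 times per sample. At rest the WT values were 73.7, 77.7, 79.6, 82.1 and 83.4% and the mD3AKO values 56.9, 58.4, 64.6, 67.0 and 68.9%. The genotypes did not overlap at rest, and every mD3AKO sample at every time lay below the WT mean. Over all times, WT samples ran from 62.9% through a median of 81.0% to 91.7%, and mD3AKO samples from 27.8% through 64.6% to 72.1%. The mean fell from 78.6% ± 8.14 (SD, n = 21) to 60.4% ± 10.8 (SD, n = 23), a difference of -18.2 percentage points. On the log2 odds scale the change was -1.35 ± 0.24 (SE), with an adjusted p of 0.000818. Of the 23 mD3AKO samples, 11 lay under the lowest WT sample. The difference was -16.1, -22.2, -18.4 and -17.2 points at rest, 10, 30 and 60 min. The Sox8 promoter, 9 CpGs around 432 bp upstream of the start, had 1.66% ± 1.84 in WT and 0.677% ± 0.787 in mD3AKO, with an adjusted p of 0.618.

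**Figure D1:**
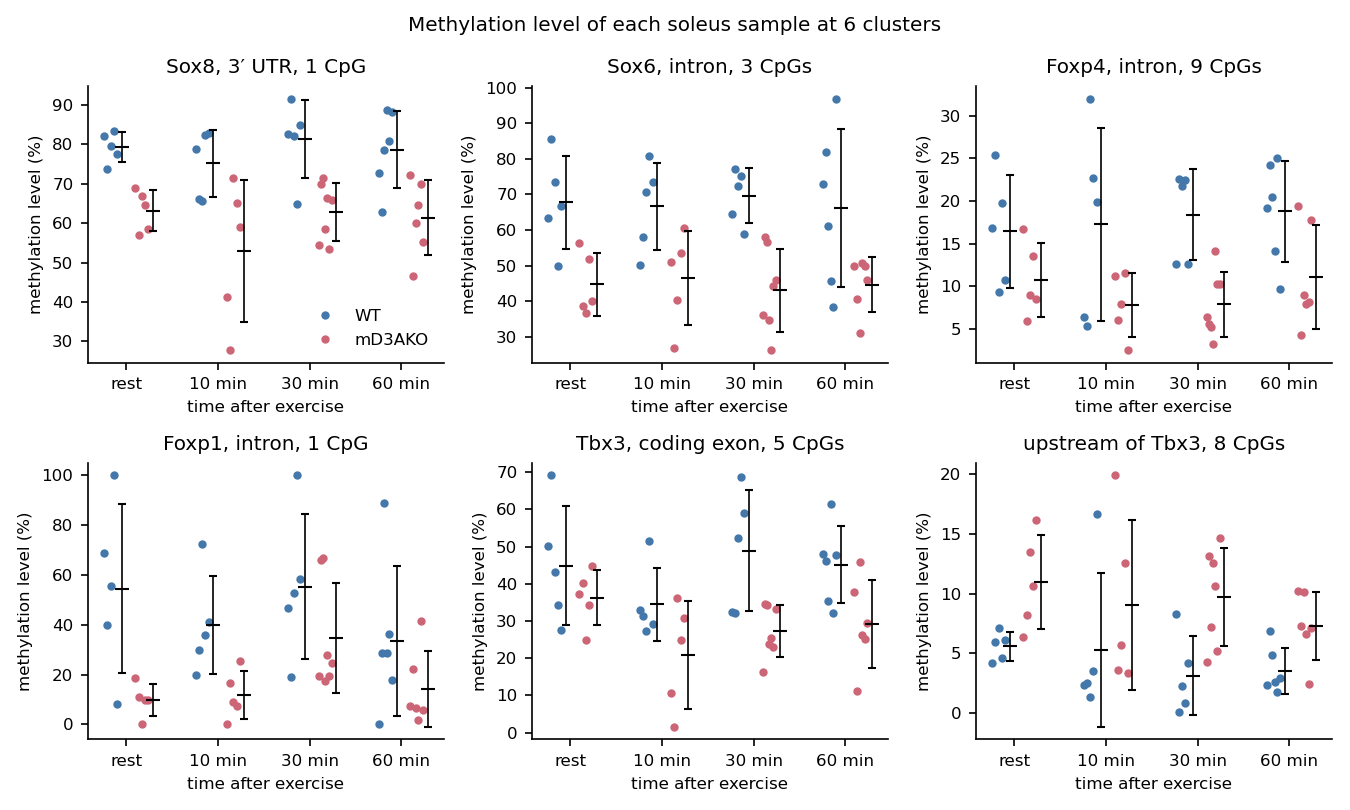
Methylation level (percent, y axis) of each sample at 6 clusters, by time after exercise on the x axis, with WT in blue, mD3AKO in red and bars for the mean ± SD of each group of 5 to 7 mice (the y range differs between panels). The mD3AKO means of Sox8, Sox6, Foxp4, Foxp1 and the Tbx3 exon lie below the WT means at all 4 times, those upstream of Tbx3 lie above, and the Foxp1 points spread from 0% to 100% in WT.

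Sox6 held the largest difference in points among member clusters of 3 or more CpGs. The cluster lies in an intron (chromosome 7, 115487946 to 115488013), far into the gene, 550810 bp from its 5′ end. At rest WT samples had 50.0, 63.3, 66.7, 73.4 and 85.5%, and mD3AKO samples 36.8, 38.7, 40.0, 51.7 and 56.4%. At 30 min the 5 WT samples had 58.9, 64.6, 72.5, 75.3 and 77.2%, and the 7 mD3AKO samples ran from 26.3% through a median of 44.4% to 57.9%. The genotypes thus overlapped at rest and not at 30 min. The mean fell from 67.5% ± 14.2 to 44.6% ± 9.87, by -22.9 points, and all 23 mD3AKO samples lay below the WT mean. The log2 odds ratio was -1.48 ± 0.30, with an adjusted p of 0.00486. Each of its 3 CpGs was called on its own, with differences of -24.9, -23.6 and -20.1 points. The differences were -23.0, -20.1, -26.6 and -21.5 points at rest, 10, 30 and 60 min.

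The other Sox6 clusters set this one in context. Of the 9 clusters, 7 were lower in mD3AKO. Those near the 5′ end were almost unmethylated: the 16-CpG cluster 4682 bp into the gene had 1.13% in WT and 0.988% in mD3AKO. The promoter cluster of 8 CpGs, which also lies in the gene 1110004F10Rik, had 6.56% ± 3.01 and 6.82% ± 2.40 (adjusted p = 0.949). Single CpGs in the introns had WT levels of 29.4 to 78.5% and differences of -7.95 to -13.9 points, none called.

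Foxp1 and Foxp4, 2 forkhead repressors of the same subfamily, each held 1 called cluster. Foxp4 was called at 9 CpGs in an intron (chromosome 17, 47922552 to 47923406), 2023 bp from the 5′ end, in a CpG island. At rest the WT values were 9.37, 10.8, 16.8, 19.8 and 25.4%, and the mD3AKO values 5.91, 8.54, 9.02, 13.6 and 16.7%. The ranges overlapped at rest, and over all times 21 of 23 mD3AKO samples lay below the WT mean. The mean fell from 17.8% ± 7.04 to 9.36% ± 4.55, by -8.42 points (log2 odds ratio -1.09 ± 0.27, adjusted p = 0.0314). The first 5 CpGs, within 70 bp, had WT levels of 18.4 to 36.7% and differences of -6.19 to -17.3 points. The 2 CpGs called singly, at positions 47922562 and 47922591, differed by -15.5 and -17.3 points. Of the 4 CpGs further on, the first, read as few as 9 times, had 12.5% ± 21.3 and 2.59% ± 5.54, and the last 3 had WT levels of 0.562 to 2.13%.

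The Foxp1 call rested on 1 intronic CpG (chromosome 6, position 98994166), 528555 bp from the 5′ end. It was read only 9 to 172 times per sample, so single values carry wide counting error. At rest WT samples had 8.33, 40.0, 55.4, 68.6 and 100%, and mD3AKO samples 0.0, 9.78, 9.86, 11.1 and 18.5%. At 30 min the 5 WT samples had 19.2, 46.5, 52.6, 58.1 and 100%, and the 7 mD3AKO samples ran from 17.5% through a median of 24.5% to 66.7%. The WT values spanned the whole scale, and 21 of 23 mD3AKO samples lay below the WT mean of 45.2% ± 28.3. The mD3AKO mean was 18.9% ± 18.0, a difference of -26.2 points (log2 odds ratio -2.47 ± 0.64, adjusted p = 0.0399). Both WT samples at 100% had 12 and 21 reads there. In WT the mean was 31.1% in the 10 females and 57.9% in the 11 males, and in mD3AKO 22.7% in the 11 females and 15.4% in the 12 males. A difference of the genotype effect between sexes was not tested. A sex term in the edgeR quasi-likelihood fit gave an unadjusted p of 0.716 for sex. That term is shared by both genotypes, so it cannot address sex differences of opposite direction in WT and mD3AKO.

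Along Foxp1, 13 of 16 clusters were lower in mD3AKO. A coding exon cluster of 2 CpGs at 99009941 had 40.8% in WT and 27.7% in mD3AKO, and an intronic pair at 99067593 had 49.3% and 37.9%, neither called (adjusted p = 0.337 and 0.463). The promoter cluster of 16 CpGs, which overlaps Gm20696, was near 0, at 0.485% ± 0.644 and 0.539% ± 0.469. In Foxp4, 7 of 8 clusters were lower, from the 3′ UTR cluster at 47867062 (58.5% ± 10.4 and 52.1% ± 8.92, adjusted p = 0.583) to a single intronic CpG at 47895764 (58.4% and 45.7%). An island cluster of 4 CpGs at 47872552 was nearly fully methylated in both genotypes, 96.4% ± 4.41 and 97.1% ± 3.08. Foxp2, the third member of the subfamily, had 1 gene-body CpG at 86.7% in WT and 81.8% in mD3AKO.

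**Figure D2:**
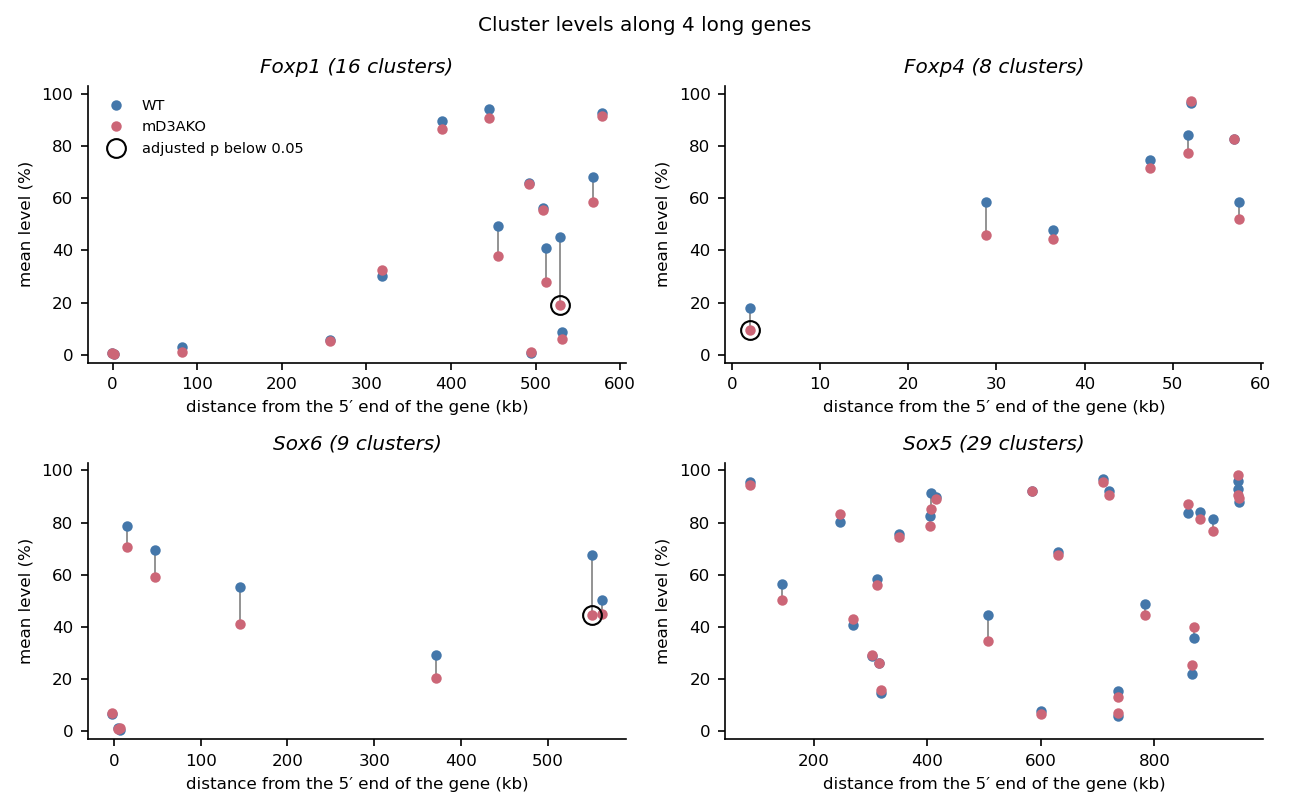
Mean methylation level of each cluster (percent, y axis) in WT (blue) and mD3AKO (red) along Foxp1, Foxp4, Sox6 and Sox5, by distance from the 5′ end of the gene in kb (x axis), with called clusters ringed. Clusters near the 5′ ends of Sox6 and Foxp1 lie near 0, and the ringed clusters of Sox6 and Foxp1 lie far into the gene.

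Tbx3, a transcriptional repressor that acts in the heart conduction system, limb and mammary gland, had 3 clusters in the gene and its promoter. A cluster of 5 CpGs in a coding exon (chromosome 5, 119680863 to 119680936) had the largest difference of the T-box family. At rest WT samples had 27.6, 34.3, 43.2, 50.1 and 69.2%, and mD3AKO samples 24.9, 34.2, 37.3, 40.3 and 44.7%. The ranges overlapped at rest, and over all times 21 of 23 mD3AKO samples lay below the WT mean and 11 below the lowest WT sample. The means were 43.4% ± 13.4 and 28.4% ± 11.0, a difference of -15.1 points. It did not pass the quasi-likelihood test (adjusted p = 0.0697) and passed the likelihood ratio test (0.00922), the quasi-binomial model (0.00267) and limma (0.0347). Its summed calls per sample ran from 60 to 1044, and its middle CpGs, at 119680882 and 119680885, were each called, with -25.5 and -21.3 points, while the first CpG had 16.6% and 13.6%. With a minimum of 20 reads in every sample that first CpG alone remained, with a quasi-likelihood adjusted p of 0.977, since the other 4 had samples with 10 reads. The Tbx3 promoter was near 0, at 0.809% ± 0.507 and 0.766% ± 0.595.

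The cluster upstream of Tbx3 had the opposite sign. It lies between genes on chromosome 5, 119563869 to 119564033, and the nearest annotated gene is the antisense RNA Tbx3os1, 6179 bp from the cluster's midpoint. At rest WT samples had 4.20, 4.58, 5.94, 6.16 and 7.13%, and mD3AKO samples 6.36, 8.22, 10.6, 13.5 and 16.1%. The WT samples were low at every time except for sample 49 at 10 min, at 16.7%. Over all times the mean was 4.35% ± 3.57 in WT and 9.20% ± 4.50 in mD3AKO, +4.85 points, and 4 of the 23 knockout samples lay under the mean of WT. The difference was +5.36, +3.76, +6.55 and +3.74 points at rest, 10, 30 and 60 min. All 8 CpGs were higher in mD3AKO, by 2.08 to 9.08 points, and the first 2 by the most. Because the cluster was singled out for its genotype difference in these same samples, no test is given.

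**Figure D3:**
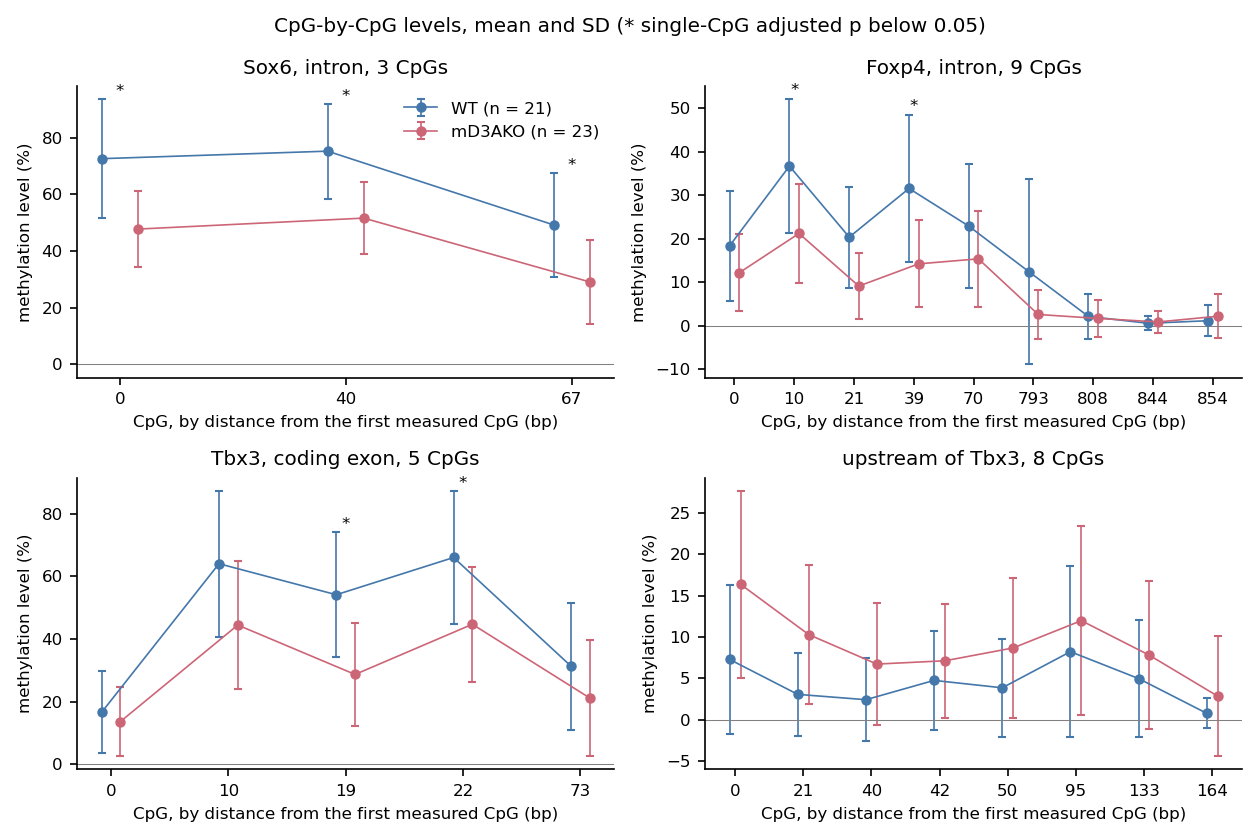
Mean methylation in percent (y axis, with SD bars over samples) of each measured CpG in WT and mD3AKO, with CpGs in order of their distance in bp from the first of the cluster (x axis, not to scale) and a star at an adjusted p under 0.05 for that CpG. In Foxp4 the genotypes separate at the first 5 CpGs and meet near 0 at the last 3, and upstream of Tbx3 the mD3AKO means lie above WT at all 8 CpGs.

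Tbx2, the closest relative of Tbx3, had a cluster of 15 CpGs (chromosome 11, 85832024 to 85833867) across its promoter and first part. It had 14.3% ± 3.64 in WT and 11.0% ± 3.03 in mD3AKO, and 20 of 23 mD3AKO samples lay below the WT mean. Only the quasi-binomial model passed it (adjusted p = 0.0449, beside 0.418 in the quasi-likelihood test). At 10 min the WT samples, 6.02, 8.18, 9.54, 12.5 and 18.4%, covered the mD3AKO samples, 9.27, 9.40, 10.4, 10.8 and 13.6%. Within the cluster, the WT means of single CpGs ran from 0.173% at 85833223 to 39.9% at 85833856. The CpG with the largest difference, at 85833714, had 24.7% and 16.9%.

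Of the limb and muscle T-box genes, none was called, beside 1.09% of all clusters. Tbx15 was lower at 5 of 5 clusters, with the largest difference in an intron at 99261261 (28.8% ± 15.1 and 19.6% ± 10.9, adjusted p = 0.612). Tbx15 had 20 CpGs near its start at 2.23% ± 1.14 and 1.99% ± 0.937. Tbx4, of the hindlimb, had a promoter value from 1 CpG read 16 to 178 times, 14.6% ± 14.4 and 17.7% ± 19.3. Tbx5, of the forelimb and heart, had no measured promoter CpG and a gene body of 43 CpGs at 10.0% ± 3.75 and 10.8% ± 3.35. The Tbx1 promoter, of the pharyngeal programme, was likewise 1 CpG, at 1.52% ± 2.59 and 3.39% ± 6.96, while its gene body of 20 CpGs had 38.4% ± 8.46 and 34.1% ± 10.8. Tbx18 had 27 CpGs across its start at 4.59% ± 2.09 and 3.63% ± 2.46.

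The remaining Sox genes held little methylation near their starts and no call, beside 1.09% of all clusters called. Sox9, needed for cartilage and testis, had 9 promoter CpGs at 3.42% ± 2.51 and 2.22% ± 1.61 (adjusted p = 0.858). Sox21 had 31 CpGs across its promoter and gene at 1.10% ± 0.50 and 1.05% ± 0.815. Sox5, which pairs with Sox6 in cartilage, was the most sampled member, with 29 clusters whose WT levels ran from 5.74 to 96.9%. In Sox5, 17 of 29 clusters were lower in mD3AKO, and the largest difference at 3 or more CpGs was in an intron at 144637211 (56.6% ± 10.4 and 50.3% ± 12.0, adjusted p = 0.676). A Sox5 coding exon cluster at 143835257 had 92.7% ± 4.01 and 90.7% ± 4.04. Its gene body as a whole, 63 CpGs, had 63.1% ± 4.35 and 62.3% ± 4.11.

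Gata genes had no call under any of the 3 tests, which called 1.09%, 2.77% and 2.54% of all clusters. With 28 clusters, an absence of calls cannot be told apart from those shares. Of the 28, 22 (78.6%) were lower in mD3AKO, beside 62.4% of all clusters. Gata2, of blood progenitors and endothelium, was lower at 7 of 7 clusters. Its upstream cluster of 26 CpGs had 10.8% ± 3.50 and 9.06% ± 3.35 (adjusted p = 0.788), and a coding exon and intron cluster at 88202424 had 24.7% ± 10.2 and 21.8% ± 9.26. A Gata2 coding exon cluster at 88204649 had means of 9.32% ± 10.2 and 6.02% ± 3.97, yet a fitted log2 odds ratio of 0.07 ± 0.51, so its direction depends on the measure. Gata3, of T cells, was lower at 8 of 9 clusters, and its coding exon cluster at 9874657 had 30.3% ± 10.7 and 28.1% ± 14.3. Gata4, of heart and gut, was lower at 4 of 9 and had no measured promoter CpG. Gata5 and Gata6 had starts with few methylated reads, 4.18% ± 1.84 and 2.89% ± 1.47 over 20 CpGs of Gata5, and 1.80% ± 0.985 and 1.65% ± 0.984 over 56 CpGs of Gata6.

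Among the other Fox genes, Foxl2, a factor of ovary and eyelid, had the cluster with the lowest interaction p of any member. Its 7 CpGs lie in the 3′ UTR (chromosome 9, 98957912 to 98958317). At rest WT samples had 4.47, 5.64, 5.73, 7.25 and 12.4%, and mD3AKO samples 0.257, 1.16, 1.22, 1.49 and 1.57%. At 10 min WT samples had 6.42, 6.45, 7.08, 8.75 and 9.09%, and mD3AKO samples 1.85, 2.62, 2.92, 3.31 and 4.24%. The genotypes were wholly apart at both times and overlapped at 30 and 60 min. The differences were -5.95, -4.57, +0.85 and +0.435 points in time order. The interaction had an unadjusted p of 0.00133 in edgeR's quasi-likelihood test and an adjusted p of 1.0, so it was not called. The genotype difference over all times, 6.08% ± 2.61 against 4.07% ± 2.96, had an adjusted p of 0.0691 in the quasi-likelihood test. The likelihood ratio test called this cluster for genotype, and the quasi-binomial model did not (adjusted p = 0.059).

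Samples of the genotypes that do not overlap were also counted at each time. At rest, 2 of 186 member clusters (1.08%) had every mD3AKO sample below every WT sample, in Sox8 and Foxl2, beside 0.774% of all clusters. At 10 min there were 4 (2.15%), beside 0.768% of all clusters. They were Foxl2 and, named after their values were seen, Foxa2, Sox7 and Tbx4. The Foxa2 CpG at 148047401 had 32.0 to 53.1% in WT and 6.06 to 28.0% in mD3AKO at 10 min, but means over all times of 23.3% and 24.9%. In Sox7 the cluster at 63941705 had 6.83 to 15.0% and 3.98 to 6.79% at 10 min. In Tbx4 the cluster at 85895299 had 4.95 to 24.7% and 0.128 to 4.87%. At 30 min 1 member cluster (0.538%) was wholly lower, in Sox6, beside 0.711% of all clusters, and at 60 min none was, beside 0.451%.

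No member cluster was called for time after exercise or for a genotype effect that differs between times. No cluster at all was called in edgeR's quasi-likelihood test for time (0.0% of all clusters) or for the interaction (0.0%). At an unadjusted p under 0.05, 2 of 186 members (1.08%) passed for time, beside 2.86% of all clusters, and 4 (2.15%) for the interaction, beside 2.74%. The likelihood ratio test called 10 and 7 clusters in all, none of them a member. The lowest time p of a member, 0.0365, belonged to a Foxp1 cluster of 3 CpGs at 99028614 with 0.696% ± 1.41 in WT and 0.951% ± 1.91 in mD3AKO. No member was called for sex. Sample numbers 1 to 25 are the rest and 60 min samples and 26 to 49 the 10 and 30 min samples, so what the numbers may stand for and time cannot be told apart, whereas both genotypes occur in each set. Within the sets the differences were -16.7 and -19.5 points for Sox8, -22.2 and -23.7 for Sox6, -6.76 and -9.95 for Foxp4 and -30.7 and -22.5 for Foxp1. None of the 4 passed the adjusted test within a single set.

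Promoters, counted from 3000 bp upstream to 1000 bp downstream of a start, had CpGs in 40 member genes, and none was called, beside 0.789% of all promoters. The likelihood ratio test and the quasi-binomial model called no member promoter either, beside 188 and 166 of all 9761 promoters. Limma also called none, and its share over all promoters is not given here. In edgeR's quasi-likelihood test, 3 of 40 (7.5%) had an unadjusted p under 0.05, beside 8.13% of all promoters. The lowest adjusted p was 0.573, in Gata5. The promoters of 27 of the 40 genes (67.5%) had a WT level under 5%, beside 79.3% of all promoters. Foxj1, the master factor of motile cilia, was the only member at 20% or more, with 33.1% ± 7.88 in WT and 29.7% ± 8.13 in mD3AKO over 14 CpGs. The next were Gata2 (16.7% ± 8.29), Tbx4 (14.6%, 1 CpG), Foxp2 (11.9% ± 6.47) and Tbx20 (10.3%, 1 CpG). The lowest promoter level was that of Eomes, 0.409% ± 0.51. Foxc2, a factor of lymphatic vessels and fat, had 40 CpGs in 1 promoter cluster, shared with Gm20388, at 1.11% ± 0.585 and 1.31% ± 0.911, and all 4 of its clusters were higher in mD3AKO, none called. Foxk1 had 1.49% ± 1.40 and 1.25% ± 1.53. Foxd2, with 56 CpGs in 1 cluster, had 4.47% ± 1.83 and 4.53% ± 2.29.

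Gene bodies had CpGs in 47 member genes, and 1 was called, Sox8, through the CpG described above (adjusted p = 0.000319), beside 1.42% of all gene bodies. The next lowest adjusted p was 0.260, for Foxp4, with 57.1% ± 8.21 and 50.3% ± 6.43 over 29 CpGs. Of the 47 bodies, 39 (83.0%) were lower in mD3AKO, beside 63.9% of all gene bodies. Levels ranged widely: 22 bodies were under 5% in WT and 11 at 20% or more. In the 36 genes with both measures, the body was higher than the promoter in 22, and by over 5 points in 12, while the promoter was higher by over 5 points in 1.

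**Figure D4:**
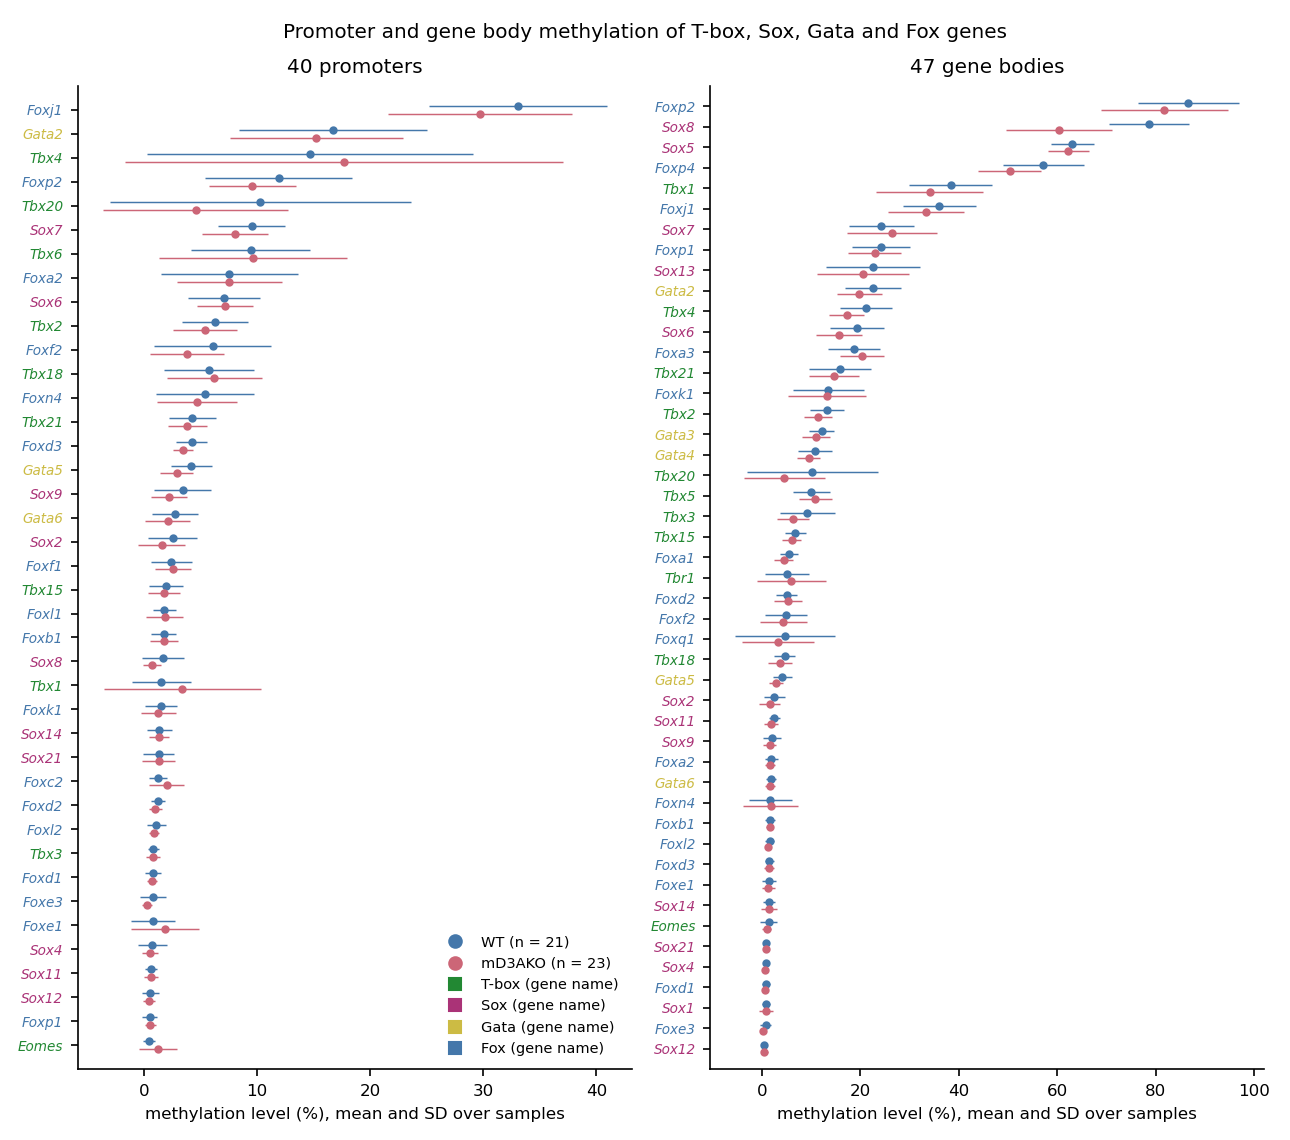
Mean methylation level (percent, x axis, bars SD over samples) of the 40 member promoters and 47 member gene bodies, sorted by the WT mean, in WT (n = 21, blue) and mD3AKO (n = 23, red), with gene names coloured by family. Of the promoters, 27 lie under 5% in WT, and the Sox8 body is the pair furthest apart.

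Over all member clusters the level was low and the difference small. The median WT level was 10.1%, beside 52.2% of all clusters, and 58.6% of member clusters held a CpG-island CpG, beside 38.0%. The median difference was -0.671 points, beside -0.455, and 128 of 186 (68.8%) were lower in mD3AKO, beside 62.4%. Among the 61 member clusters with a promoter CpG the median WT level was 2.23% and none was called, beside a median of 0.889% and 1.23% called over all clusters with a promoter CpG. The 125 clusters in gene bodies alone had a median of 30.3% and 4 calls (3.20%), beside a median of 63.4% and 1.47% called over all clusters of that kind. By family the median difference was -0.416 points in T-box, -0.950 in Sox, -1.36 in Gata and -0.420 in Fox genes. Of single CpGs, 9 of 1320 (0.682%) were called by the quasi-binomial model, beside 0.409% of all CpGs. They were 1 in Sox8, 3 in Sox6, 2 in Foxp4, 1 in Foxp1 and 2 in Tbx3, all lower in mD3AKO.

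**Figure D5:**
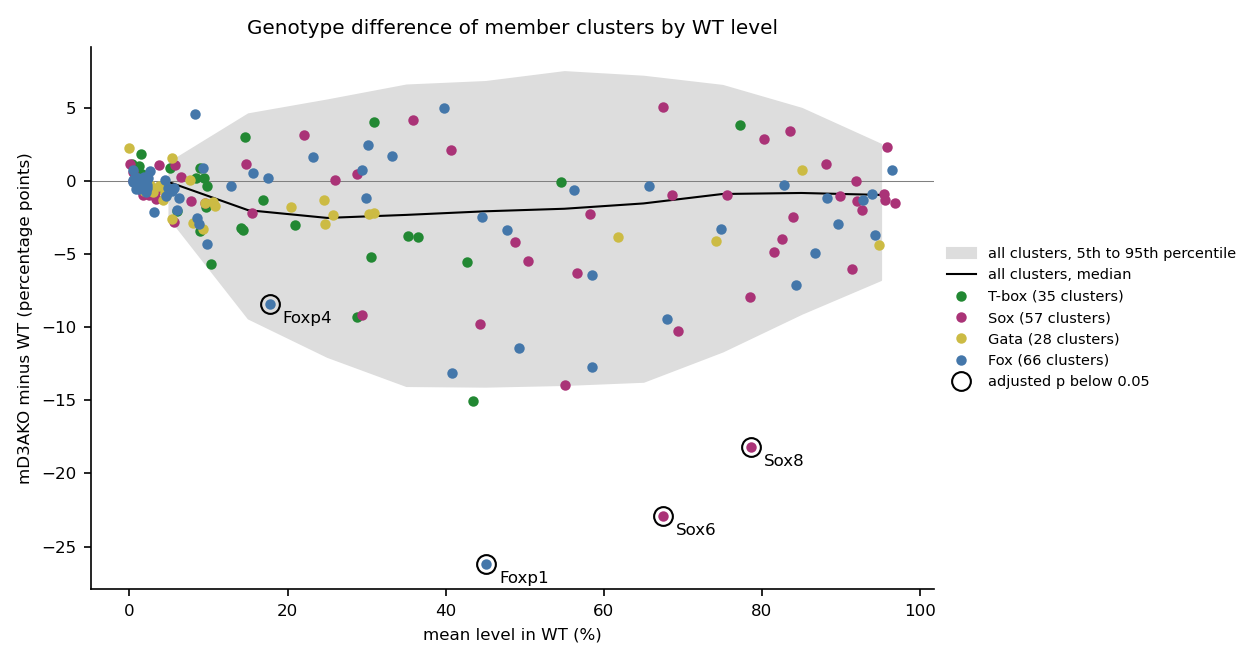
Genotype difference (mD3AKO minus WT, percentage points, y axis) of each member cluster against its WT level (percent, x axis), coloured by family, with the median of all clusters as a line and their 5th to 95th percentile at each level in grey. Of the ringed, called clusters, Sox8, Sox6 and Foxp1 lie below the grey range and Foxp4 inside it, and the members of low level crowd at the left near 0.

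Other genes of the same families and known partners were taken from fixed lists. Of 28 other family genes, 22 had CpGs, in 48 clusters, of which 34 (70.8%) were lower in mD3AKO, with a median difference of -0.665 points. Of the 48, 4 (8.33%) were called, all lower, beside 1.09% of all clusters. The 4 called clusters were in Foxo3, a regulator of muscle atrophy genes (2.00% and 0.348%), Foxo6 (15.7% and 5.34%), Foxn3 (30.6% and 17.6%) and Mga, which carries a T-box (6.71% ± 5.34 and 0.757% ± 0.691). Of 19 partners, 18 had CpGs, in 59 clusters, of which 41 (69.5%) were lower, with a median difference of -0.767 points, and 2 (3.39%) were called, both lower, in Lmo2 and Nr2f2. Lmo2, a bridge in Gata complexes, had 9.56% ± 5.10 and 3.85% ± 2.25, and Nr2f2, a nuclear receptor, 2.42% ± 2.76 and 0.590% ± 1.42. These lists hold few clusters, and their shares were not tested against the background.

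Promoter levels of marker genes of several cell types were also described. The 7 myofibre promoters with CpGs had a median WT level of 1.45%, from 0.534 to 11.5%, and 2 blood cell promoters had 62.3 and 65.7%. In WT the endothelial Kdr promoter had 1.19%, the fibroblast Pdgfra promoter 0.848% and 2 Schwann cell promoters 1.46 and 1.60%. Low promoter levels were thus not confined to myofibre markers. In mD3AKO the myofibre promoters had 0.388 to 17.4% and the blood cell promoters 49.7 and 69.4%, and none was called. Of 2 listed satellite cell markers, only Pax7 had CpGs. Pax7 was lower in mD3AKO at 10 of 10 clusters, of which 4 (40.0%) were called, beside 1.09% of all clusters. The study lists Pax7 as a putative DNMT3A target with less methylation in knockout soleus and other muscles. No cluster was called among markers of myofibres (30 clusters), endothelium (15), blood (10), fibroblasts (3), adipocytes (2) or Schwann cells (9). These lists hold too few clusters for an absence of calls to stand apart from the 1.09% called over all clusters. The part of cell mixture in the results at Sox8, Sox6, Foxp1 and Foxp4 was not tested. Total calls per sample ran from 12819404 to 41285655, and the median coverage per CpG from 48 to 163. Errors are SD over mice and cover both biological and counting error.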

How the data were processed

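Genomic DNA of the soleus was digested with MspI, bisulfite treated and sequenced. Per the labels and the study's methods, the authors trimmed reads with Trim Galore 0.4.0 and cutadapt 1.9.1 and aligned them to mm10 with Bismark 0.18.1. The deposited table gives 2 read counts per CpG and sample, methylated and unmethylated, and holds autosomal CpGs (19 chromosomes) that no sample covered by under 8 reads. Of the 50 samples in the labels, 44 were used and 6 were not used here.

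Counts were summed over clusters (CpGs at most 100 bp apart), promoters and gene bodies, and annotated with GENCODE M21 on GRCm38. The study grouped CpGs by an earlier GENCODE release. The fit in edgeR 4.0.16 had a coefficient for each sample, 8 group means of the methylated fraction and a common dispersion, and used quasi-likelihood F tests with Benjamini-Hochberg adjustment over all features. For genotype, the contrast averaged the 4 mD3AKO groups and subtracted the average of the 4 WT groups. Single CpGs were tested in a quasi-binomial model with a pseudocount of 0.5 and dispersions moderated by limma 3.58.1. Alternative tests were the likelihood ratio test, the quasi-binomial model and limma on log2 ratios with a pseudocount of 1. Other settings were a minimum of 20 reads, a sex term and each sample left out in turn. A contrast of the rest groups alone was also taken within the fit of all 44 samples. The scripts were tested on simulated data.

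Levels are the mean over samples of the percentage of methylated calls, and errors are SD over samples. Total calls and coverage set the counting error, and reads without molecular identifiers are not independent molecules. Replicates were separate mice. Over 101 pairs of samples of 1 group, the chi-square per CpG ran from 6.01 to 14.0, so no pair was as alike as sampling noise alone. The member genes and lists were chosen with earlier results of these data known. Values are named for clusters that were called by any of the 3 tests, the Tbx3 intergenic cluster, the 2 clusters of 3 or more CpGs per family with the largest difference, those with the highest WT level or most promoter CpGs, clusters with the lowest p for time and for the interaction, and genes with a known role in muscle, limb or brown fat. The rule named 32 clusters. Strand-specific overlap was not resolved: 16 member clusters overlap another gene and 9 hold CpGs outside the member.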

Additional observations from a re-analysis of the deposited data

Results flagged for a closer look

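In 64 groups of 5 to 7 samples at 8 clusters, 3 samples stood apart from the rest of their group by Dixon's criterion, where chance gives about 1 in 20 groups. At the Tbx2 cluster, WT sample 32 at 30 min had 12.3%, beside 15.4 to 16.4% in the other 4. At the cluster upstream of Tbx3, WT sample 49 at 10 min had 16.7%, beside 1.37 to 3.50%. At the Tbx3 coding exon, WT sample 47 at 10 min had 51.6%, beside 27.4 to 33.0%.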

How the results depend on the processing

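Of the 186 member clusters, 4 (2.15%) were called for genotype, beside 1.09% of all clusters. The likelihood ratio test and the quasi-binomial model each called 6, beside 2.77% and 2.54% of all clusters. Limma called 6, a minimum of 20 reads 3 and a sex term 4. For these and for the fits with a sample left out, the share over all features is not given here. The contrast of the rest groups, within the fit of all 44 samples, called 0 members in edgeR and in the quasi-binomial model. In edgeR, 9 members (4.84%) had an unadjusted p under 0.05, beside 4.69% of all clusters, in a contrast of 5 against 5 samples. Leaving out each of the 44 samples in the quasi-binomial model gave 5 to 8 calls, and 8 without mD3AKO sample 33. The calls of Sox8, Sox6, Foxp4 and Foxp1, and that of the Tbx3 coding exon in that model, held in 44 of 44 such fits. That of Tbx2 held in 18 and Foxl2 was called in 6. Promoters gave 0 to 0 calls, gene bodies 1 to 2 (2 without WT sample 13, when Foxp4 was added) and single CpGs 5 to 10, with 5 without WT sample 47. Time and interaction gave 0 member calls throughout. Within the number sets edgeR called 0 members (12 and 14, or 6.45% and 7.53%, at an unadjusted p under 0.05, beside 6.48% and 6.92% of all clusters). The quasi-binomial model, added after the data were seen, called 2 members at rest and 60 min, beside 216 of all 51038 clusters. At 10 and 30 min it called 3 members, beside 419 of all 51038. With a sample left out, the cluster upstream of Tbx3 differed by 4.36 to 5.46 points. It was picked for this difference in these same samples, so the range is a description and gives no support.

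Some log2 odds ratios of clusters that were not called changed sign, and the cause was not tested. With at least 20 reads, Foxc2 was at -0.47 and the Sox6 promoter at -0.61. In limma, Foxp1 99028614 was at 0.042, Foxp4 47872552 at 0.029 and Gata2 88204649 at -0.0080. In the quasi-binomial model Foxp4 47872552 was at 0.20 and Gata2 88204649 at -0.46. In the contrast of the rest groups, Gata2 88202424 was at 0.051, Gata2 88204649 at -0.59, Tbx15 99241166 at 0.065 and Tbx4 85886588 at -0.048. With a sample left out, the ranges crossed 0 or left the sign of the main estimate for Foxd2 (-0.0060 to 0.17), Foxp1 99028614 (-1.05 to 0.42), Foxp4 47872552 (-0.49 to 0.36), Gata2 88204649 (-0.64 to -0.0078), Sox21 (-0.24 to 0.031), the Sox6 promoter (-0.031 to 0.20) and Tbx1 (-0.038 to 1.58). No paired analysis was possible because each sample number occurs in 1 group only. The Foxp1 CpG, read 9 to 172 times, had no value at a minimum of 20 reads.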
